A study of Mus musculus with 16 samples.

Results

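The 10 genes described here encode the integrin subunits that pulmonary endothelial cells (ECs) and leukocytes use to hold on to matrix and to each other. They were chosen by name out of 54532 genes in each expression table, and all 10 were found. The set comprised the beta chains Itgb1, Itgb2 and Itgb3 and the alpha chains Itga4, Itga5, Itga6, Itgav, Itgal, Itgam and Itgax. RNA-seq was carried out in bulk on mouse lung ECs in 2 experiments with 16 libraries in all, to ask what LPS-induced lung injury, and then loss of endothelial Fgfr1, did to EC transcripts. In the first experiment, male wild-type (WT) C57/BL6J mice aged 8 weeks received saline (n = 4) or 10 mg/kg LPS (n = 6) into the trachea. The second used Fgfr1 iΔEC/iΔEC mice (n = 3), in which Cre, switched on by tamoxifen under the VE-cadherin promoter, removes floxed Fgfr1 from ECs, and their Fgfr1 loxP/loxP littermates without Cre as controls (n = 3). Both genotypes were given 2 mg/kg LPS, so the second experiment had no saline group, and RNA was taken after 24 h in every group. Cells were isolated on magnetic beads, first removing those with CD45 and then keeping those with CD31. The study reduced the dose for the second experiment so that these mice would survive. Mice of both genotypes were injected with tamoxifen, and the deletion was induced in adults. Their age in weeks was not given in the sources used here. The labels do not say whether a library came from a single mouse, so p-values measure the spread between these samples.

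Integrins are paired receptors, each made of an alpha and a beta chain that pair inside the cell and reach its surface together, so the amount of a receptor depends on both chains. Beta 1 pairs with alpha 5 to bind fibronectin, with alpha 6 to bind laminin of the basement membrane and with alpha 4 to bind VCAM-1 and fibronectin, while beta 3 pairs with alpha v to bind vitronectin and other matrix proteins. Beta 2 is made by leukocytes and pairs with alpha L (LFA-1), alpha M (Mac-1) or alpha X, and LFA-1 and Mac-1 bind ICAM-1 on the endothelium when leukocytes leave the blood.

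All positions are on GRCm38 as the deposited tables give them. Itgam (ENSMUSG00000030786) lies at chr7:128062640-128118491 and Itgax (ENSMUSG00000030789) at chr7:128129547-128150657, both on the plus strand and 11055 bp apart. The gene of their relative alpha L, Itgal (ENSMUSG00000030830), is on the same chromosome at chr7:127296260-127335138, whereas that of their shared partner, Itgb2 (ENSMUSG00000000290), is at chr10:77530252-77565708. The upstream sequences below are shown because Itgam and Itgax are neighbours whose transcripts both rose in the LPS group, and because Itgb1 and Itga5 encode the chains of a single receptor and rose by similar amounts. Each is the 250 bases just before the gene start of RefSeq (GRCm38.p6), 5′ to 3′ on the strand of the gene. This start is that of the deposited tables for Itgam and Itgb1, but for Itgax the window runs 3 bases into the gene of the tables, and for Itga5 it ends 28 bases before it. Capitals mark 2 motifs on either strand, GAGGAA or its reverse complement TTCCTC, a core that ETS factors such as PU.1 bind, and GGGCGG or its reverse complement CCGCCC, the GC box. Matches to the 2 motifs share no bases in these windows.
Itgam, chr7:128062390-128062639, plus strand: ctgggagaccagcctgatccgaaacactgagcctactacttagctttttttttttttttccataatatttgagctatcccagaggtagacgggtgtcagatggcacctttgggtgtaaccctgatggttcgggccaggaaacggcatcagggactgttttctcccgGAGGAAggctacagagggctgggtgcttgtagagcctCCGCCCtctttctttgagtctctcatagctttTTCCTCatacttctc
Itgax, chr7:128129300-128129549, plus strand: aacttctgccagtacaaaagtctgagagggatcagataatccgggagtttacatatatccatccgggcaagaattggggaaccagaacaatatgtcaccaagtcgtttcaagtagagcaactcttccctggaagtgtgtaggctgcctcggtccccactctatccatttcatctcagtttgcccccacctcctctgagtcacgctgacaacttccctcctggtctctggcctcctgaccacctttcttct
Itgb1, chr8:128685404-128685653, plus strand: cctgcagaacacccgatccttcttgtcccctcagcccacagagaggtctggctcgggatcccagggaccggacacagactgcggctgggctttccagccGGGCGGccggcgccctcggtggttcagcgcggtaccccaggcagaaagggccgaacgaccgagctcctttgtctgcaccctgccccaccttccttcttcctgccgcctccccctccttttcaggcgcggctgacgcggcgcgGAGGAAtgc
Itga5, chr15:103366792-103367041, minus strand: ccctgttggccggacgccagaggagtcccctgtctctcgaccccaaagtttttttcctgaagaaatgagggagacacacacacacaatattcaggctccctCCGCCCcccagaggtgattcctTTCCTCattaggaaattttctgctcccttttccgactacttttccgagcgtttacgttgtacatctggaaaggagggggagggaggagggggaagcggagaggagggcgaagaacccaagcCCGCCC
The Itgam window held 2 GAGGAA matches and 1 GC box, while the Itgax window held 0 of either. Itgb1 had 1 of each and Itga5 had 1 GAGGAA match and 2 GC boxes. Sequences were matched for 6 of the 10 genes. Itga4 had 1 GC box and no GAGGAA match, and Itgav had 2 GAGGAA matches and no GC box. Over 32851 mouse windows of the same length, 23.3% held GAGGAA and 32.7% held the GC box, so both are common. G and C made up 49.6% of the Itgam window and 50% of the Itgax window, against 68% for Itgb1 and 55.6% for Itga5.

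Values are FPKM, reads per kilobase of gene model after scaling for library depth, so that levels of different genes can be set side by side. Reads on genes ranged from 13478726 to 18807007 in the saline libraries, 17840221 to 19043015 in the LPS libraries, 15969575 to 17002788 in the loxP/loxP libraries and 16642177 to 16943522 in the iΔEC/iΔEC libraries. The fewest reads behind any of the 10 genes were 57, for Itgam in a saline library, so counting error is small beside the spread between libraries for most values.

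The label of the cells was checked first. The 10 endothelial marker genes were read in all 16 libraries, and their FPKM summed to 5478, 3351, 4194 and 3469 in saline 1 to 4 and to between 1477 and 3538 in the LPS libraries. Cldn5, a tight junction gene of ECs, was the most abundant. Pecam1, which encodes CD31, was at 516, 348, 399 and 339 FPKM in saline 1 to 4 and at 234 (lowest), 361 (median) and 444 (highest) in the LPS group. Its change was -0.17 on the log2 scale and did not pass the test (limma adjusted p = 0.516), but 5 of the 10 endothelial genes fell and 0 rose, with a median log2 fold change of -0.63 for the list. Over all genes tested in this comparison, 29.5% were higher and 23.7% lower in the LPS group by the same test.

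Transcripts of other cells were also present. The 6 leukocyte genes, among them Ptprc, which encodes the CD45 used for depletion, summed to 320.4, 156, 106 and 136 FPKM in saline 1 to 4 and to between 1009 and 2439 in the LPS libraries, with Tyrobp the most abundant there, and 6 of 6 rose. Ptprc itself was at 10.99, 7.44, 3.53 and 5.93 FPKM in saline 1 to 4 and at 22.1 (lowest), 30.5 (median) and 52.7 (highest) in the LPS group. Neutrophil genes, led by S100a9, summed to 1401, 74.0, 311 and 78.2 FPKM in saline 1 to 4 and to between 1289.8 and 6653 in the LPS libraries. Thus saline 1, and to a lesser degree saline 3, held more neutrophil transcripts than saline 2 and saline 4, and Ly6g was at 0 in saline 4. Results for the 10 integrin genes without saline 1 and saline 3 are therefore given beside those with all libraries. Monocyte and macrophage genes, led by Chil3, summed to 130.2, 113, 179 and 92.2 FPKM in saline 1 to 4 and to between 789 and 1769 in the LPS libraries. Of the neutrophil genes 6 of 8 rose, and of the monocyte and macrophage genes 7 of 8 rose, against the 29.5% of all genes. In bulk RNA, more cells of a type and more RNA per cell cannot be told apart.

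Comparison of LPS with saline tested 14893 genes, those that averaged 0.5 FPKM or more. At an adjusted p at or under 0.05 in limma, 53.2% of them differed, 29.5% being higher and 23.7% lower in the LPS group, and the median log2 fold change was 0.01. Of the 10 integrin genes 9 were higher and 1, Itga6, was lower, with a median log2 fold change of 2.02. The 10 were chosen with earlier results of these data known, so their counts beside all genes are a description. The LPS libraries did not overlap the saline libraries for any of the 10, which was the case for 39.4% of all genes (22.7% higher and 16.7% lower). All 10 also had an unadjusted p under 0.05 in limma, as had 59.6% of all genes. With a limit of at least 1 on the absolute log2 fold change as well, 6 were higher and 1 lower, against 11.9% and 6.79% of all genes. Without saline 1 and saline 3 the counts were again 9 higher and 1 lower, beside 28.6% and 21.3% of all genes. How the genes were scaled mattered for the balance of the whole table: 4399 genes were higher and 3529 lower as given, 3570 and 4295 after quantile normalization, 3473 and 4622 when scaled on total reads, and 6932 and 860 when scaled on the endothelial markers, which moved the median of all genes to 0.54. With quantile normalization and total reads that median was -0.08 and -0.14. In each of these scalings 9 of the 10 integrin genes had a log2 fold change above 0 and Itga6 had one below 0, but Itgb1 and Itga5 did not pass the test after quantile normalization, nor Itga6 with scaling on the endothelial markers.

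**Figure D1:**
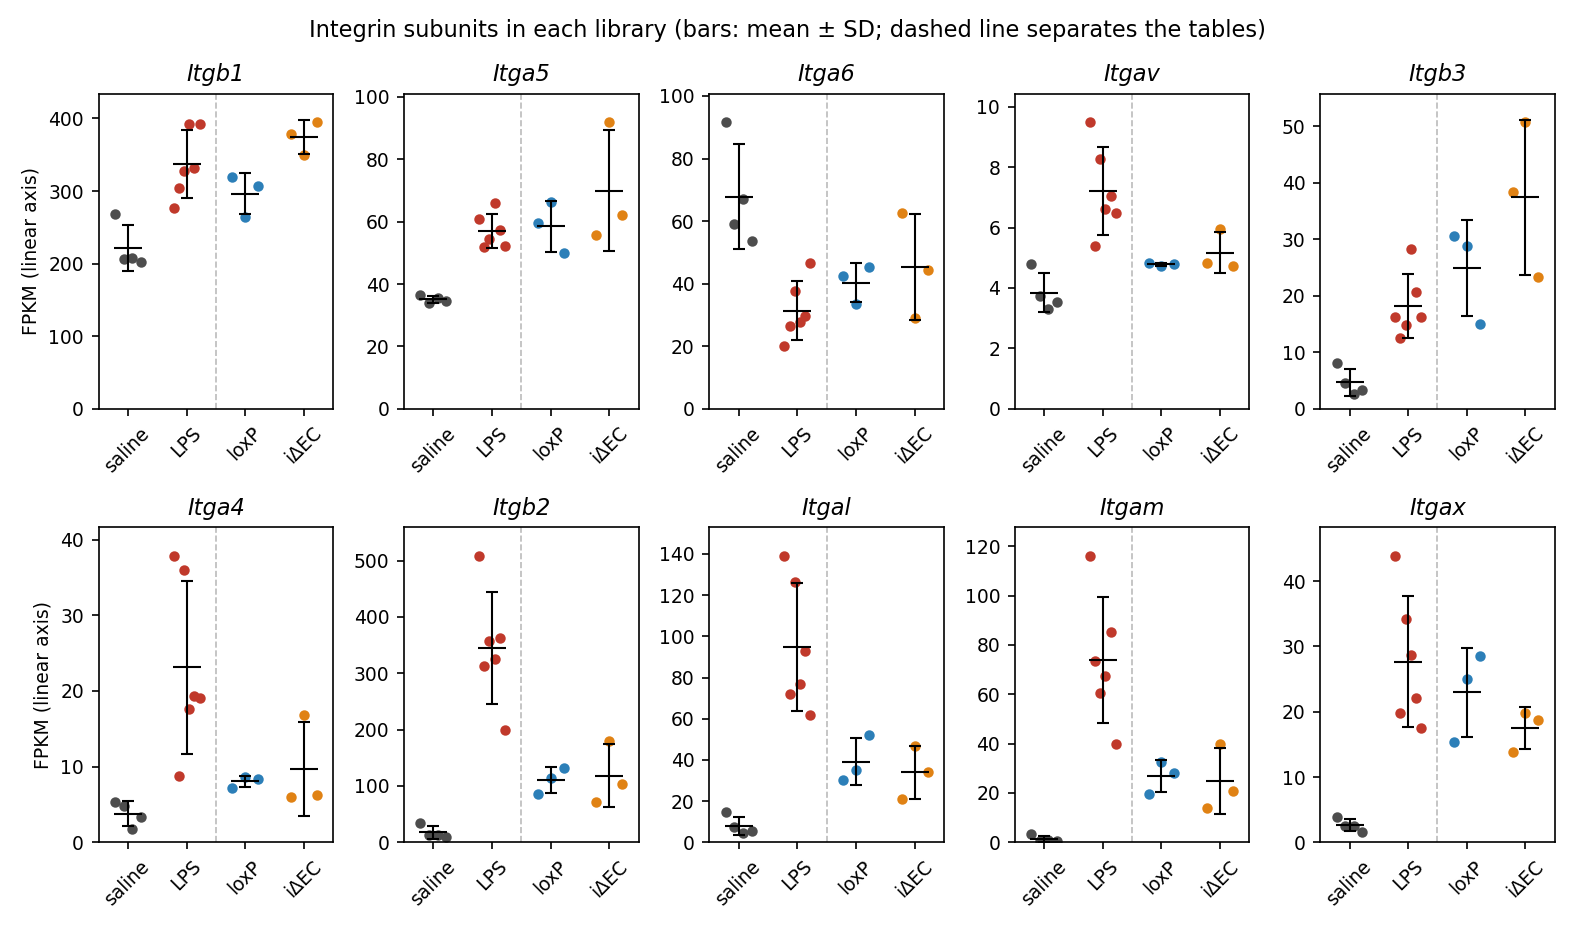
FPKM (linear axes) of the 10 integrin genes in each of the 16 libraries, with 1 point per library and bars for the mean ± SD. Left of the dashed line are the saline (n = 4) and LPS (n = 6) libraries and right of it loxP/loxP (n = 3) and iΔEC/iΔEC (n = 3), from a table that was normalised separately. The LPS points lie above all saline points for every gene except Itga6, where they lie below.

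The chains of the leukocyte integrins showed the largest increases. Itgb2, the common beta 2 chain, was at 34.1, 13.5, 13.3 and 9.81 FPKM in saline 1 to 4 and at 199.5 (lowest), 341 (median) and 509 (highest) in the LPS group. Its mean went from 17.7 ± 11.1 (SD, n = 4) to 344 ± 99.9 (SD, n = 6), a 19.5-fold difference of means and a log2 fold change of 4.31 with a standard error of 0.32 (limma adjusted p = 2.81e-06). Even the lowest LPS library, LPS 6, stood far above saline 1, the highest of the saline libraries. Itgam, the alpha chain of Mac-1, was at 3.42, 0.612, 0.724 and 0.576 FPKM in saline 1 to 4 and at 39.9 (lowest), 70.4 (median) and 116 (highest) in the LPS group. With a log2 fold change of 5.08 ± 0.33 (SE, limma adjusted p = 1.32e-06), it had the largest change of the 10 genes, and saline 1 was again the highest of its group.

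Itgal, the alpha chain of LFA-1, was at 14.5, 7.44, 4.62 and 5.33 FPKM in saline 1 to 4 and at 61.9 (lowest), 84.9 (median) and 139 (highest) after LPS, a log2 fold change of 3.48 ± 0.31 (SE, limma adjusted p = 8.38e-06). Itgax, which encodes the alpha X chain known as CD11c, was at 3.89, 2.52, 2.54 and 1.60 FPKM in saline 1 to 4 and at 17.5 (lowest), 25.4 (median) and 43.9 (highest) after LPS, a log2 fold change of 2.95 ± 0.26 (SE, limma adjusted p = 7.89e-06). For all 4 chains LPS 1 had the highest value and LPS 6 the lowest. Without saline 1 and saline 3 the log2 fold changes were 4.74 for Itgb2, 5.48 for Itgam, 3.65 for Itgal and 3.18 for Itgax. A log2 fold change on FPKM + 1 understates the change of genes with low values, which applies to Itgam in the saline libraries. Leukocyte transcripts rose in the same libraries, and their part in these values was not tested. Gm49368, a gene model that shares exon sequence with Itgam on the same strand, had at most 0.195 FPKM in any library.

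How Itgb2 compared with other leukocyte transcripts depended on the gene it was set against. Itgb2 FPKM divided by Ptprc FPKM was 3.10, 1.81, 3.77 and 1.65 in saline 1 to 4 and 8.25 (lowest), 10.4 (median) and 11.6 (highest) in the LPS group, and the groups did not overlap. Ptprc had the smallest fold difference of means of the 6 leukocyte genes, 4.96 beside 19.5 for Itgb2, while Tyrobp had the largest, 14.9. The saline mean of Tyrobp, 57.3 ± 61.4 FPKM (SD, n = 4), was raised by saline 1, at 148.7 FPKM beside 18.8 in the lowest saline library. The fold of Tyrobp, and its order against Itgb2, therefore depend on saline 1. Divided by the sum of the 6, Itgb2 was between 0.0718 and 0.126 in saline and between 0.128 and 0.225 in LPS libraries. Divided by Tyrobp it was between 0.229 and 0.5596 in saline and between 0.262 and 0.528 in LPS libraries, which overlapped. Against the macrophage genes Csf1r and Adgre1, which had 29.6-fold and 29.7-fold higher means, the ratio of Itgb2 was lower in every LPS library (1.55 to 1.70 beside 2.42 to 2.72 for Csf1r, 4.88 to 6.23 beside 6.37 to 9.94 for Adgre1), and against Cd68 (18.8-fold) the groups overlapped. These marker genes were named after their values were seen. The make-up of the beta 2 partners differed too. Of the summed FPKM of Itgal, Itgam and Itgax, Itgam made up 15.7%, 5.79%, 9.19% and 7.68% in saline 1 to 4 and 27.4% (lowest), 38.9% (median) and 44.4% (highest) in the LPS group. Itgal was the largest of the 3 partners in 5 of the 6 LPS libraries, with Itgam ahead in LPS 2 alone (44.4% against 43.6%). The share of Itgax was between 17.9% and 32.2% in the saline libraries and between 11.1% and 16.6% in the LPS libraries.

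**Figure D2:**
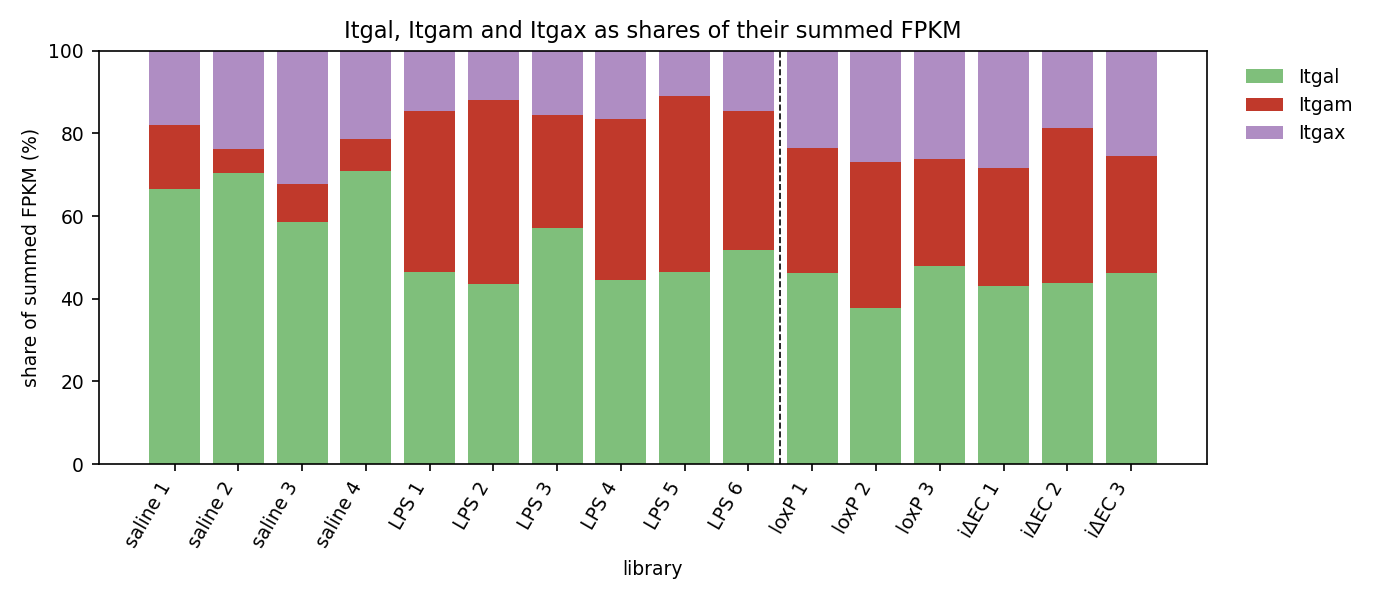
Stacked bars give the share (%) of Itgal, Itgam and Itgax in the summed FPKM of these 3 beta 2 partners, with 1 bar per library and a dashed line between the 2 experiments. The Itgam share is at most 15.7% in the saline libraries and at least 27.4% in the LPS libraries.

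These shifts were tested as 7 ratios of alpha to beta chain within each library, on log2(FPKM + 1), with two-sided exact permutation tests adjusted over the 7. Itgam rose more than its partner Itgb2, with a log2 ratio of -3.00 ± 0.16 (SD, n = 4) in saline and -2.23 ± 0.18 (SD, n = 6) in LPS libraries (difference 0.77, exact permutation adjusted p = 0.0133). The ratio of Itgal to Itgb2 was lower in the LPS group by 0.84 (from -1.02 to -1.86, exact permutation adjusted p = 0.0133), and that of Itgax to Itgb2 by 1.37 (from -2.24 to -3.61, exact permutation adjusted p = 0.0133). The unadjusted p of each was 0.00952, the smallest that 4 against 6 libraries allow in an exact permutation test. With a pseudocount of 0.1 in place of 1 the difference for Itgam was 1.62, since its saline values lie near 1 FPKM. For Itgax it was then -1.06 and for Itgal -0.76 (exact permutation adjusted p = 0.0267 for Itgal). With no pseudocount the ratios of Itgal to Itgb2 overlapped between the groups, at 0.347 in saline 3 and 0.353 in LPS 3.

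Among the beta 1 integrins the changes were smaller and did not all have the same direction. Itgb1 (ENSMUSG00000025809, chr8:128685654-128733200, plus strand) was the most abundant integrin of the saline libraries, at 269, 207, 207 and 202 FPKM in saline 1 to 4, and was at 276 (lowest), 329.7 (median) and 393 (highest) in the LPS group. The log2 fold change was 0.61 ± 0.16 (SE, limma adjusted p = 0.00859), and LPS 1 lay just above saline 1. After quantile normalization the value was 0.03 (limma adjusted p = 0.905) and with scaling on the endothelial markers 1.30 (limma adjusted p = 0.00021), so the call for Itgb1 depended on how the libraries were scaled. Without saline 1 and saline 3 it was 0.71. Itga5 (ENSMUSG00000000555, chr15:103344286-103366763, minus strand), the alpha chain of the fibronectin receptor, was at 36.5, 33.9, 35.4 and 34.4 FPKM in saline 1 to 4 and at 52.0 (lowest), 55.8 (median) and 65.9 (highest) after LPS. Its saline libraries lay close together, and the log2 fold change was 0.68 ± 0.10 (SE, limma adjusted p = 0.000304), or 0.23 after quantile normalization (limma adjusted p = 0.0937) and 1.36 with scaling on the endothelial markers (limma adjusted p = 0.000516). Without saline 1 and saline 3 it was 0.72.

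Itga6 (ENSMUSG00000027111, chr2:71745616-71858416, plus strand), which encodes the alpha chain of laminin receptors, was the gene of the 10 that fell. It was at 91.6, 59.2, 67.0 and 53.6 FPKM in saline 1 to 4 and at 20.1 (lowest), 28.7 (median) and 46.7 (highest) in the LPS group. The log2 fold change was -1.11 ± 0.22 (SE, limma adjusted p = 0.00185), and the highest LPS library stayed under the lowest saline library. Without saline 1 and saline 3 it was -0.87. Endothelial markers fell in the same libraries, and when libraries were scaled on those markers the change of Itga6 was -0.42 and no longer passed the test (limma adjusted p = 0.128).

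Itga4 (ENSMUSG00000027009, chr2:79255426-79333123, plus strand), whose receptor with beta 1 is used by monocytes and lymphocytes, was at 5.32, 4.82, 1.71 and 3.34 FPKM in saline 1 to 4. In the LPS group it was at 8.74 (lowest), 19.2 (median) and 37.9 (highest), with LPS 2 the lowest and LPS 1 and LPS 3 the highest. The log2 fold change of 2.25 ± 0.37 (SE, limma adjusted p = 0.000543) lay between that of Itgb1 and those of the 4 leukocyte chains. Saline 3 was the lowest of its group, and the change was 2.00 without saline 3 and 2.11 without saline 1 and saline 3. Within the beta 1 family, therefore, the balance of alpha chains differed between the groups. The log2 ratio of Itga4 to Itgb1 was higher in the LPS group by 1.65 and that of Itga6 to Itgb1 was lower by 1.71, each with an exact permutation adjusted p of 0.0133. For Itga5 the difference of the ratio was 0.08 (exact permutation adjusted p = 0.695) and for Itgav 0.15 (exact permutation adjusted p = 0.667), and neither passed the test.

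Itgb3 (ENSMUSG00000020689, chr11:104608000-104670476, plus strand) encodes the beta 3 chain, which ECs pair with alpha v and platelets with alpha IIb. It was at 8.12, 4.51, 2.68 and 3.40 FPKM in saline 1 to 4 and at 12.5 (lowest), 16.3 (median) and 28.2 (highest) in the LPS group, a log2 fold change of 1.79 ± 0.27 (SE, limma adjusted p = 0.000255). LPS 4 had the highest value here and not LPS 1, which led for the beta 2 chains. Itgav (ENSMUSG00000027087, chr2:83724397-83806916, plus strand) was at 4.78, 3.73, 3.32 and 3.55 FPKM in saline 1 to 4 and at 5.39 (lowest), 6.83 (median) and 9.49 (highest) after LPS. The log2 fold change was 0.75 ± 0.15 (SE, limma adjusted p = 0.00152). Without saline 1 and saline 3 the values were 1.91 for Itgb3 and 0.81 for Itgav, and with scaling on the endothelial markers they were 2.38 and 1.33. Of 7 platelet genes 5 were tested and 2 of them rose, beside 29.5% of all genes. Pf4 was among them, going from 9.08 to 52.4 FPKM. The other 3 tested were not called, and Ppbp was at 16.4 and 16.6 FPKM on average. The part of platelet transcripts in the Itgb3 values was not tested. The platelet genes summed to between 18.6 and 45.5 FPKM in the saline and between 44.5 and 132 FPKM in the LPS libraries, and Gp1bb was at 0 in all of them. Gene models overlapping Itgav (Gm13684) and Itga4 (Cerkl) lie on the opposite strand, and whether the counting used strand was not given in the sources used here.

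**Figure D3:**
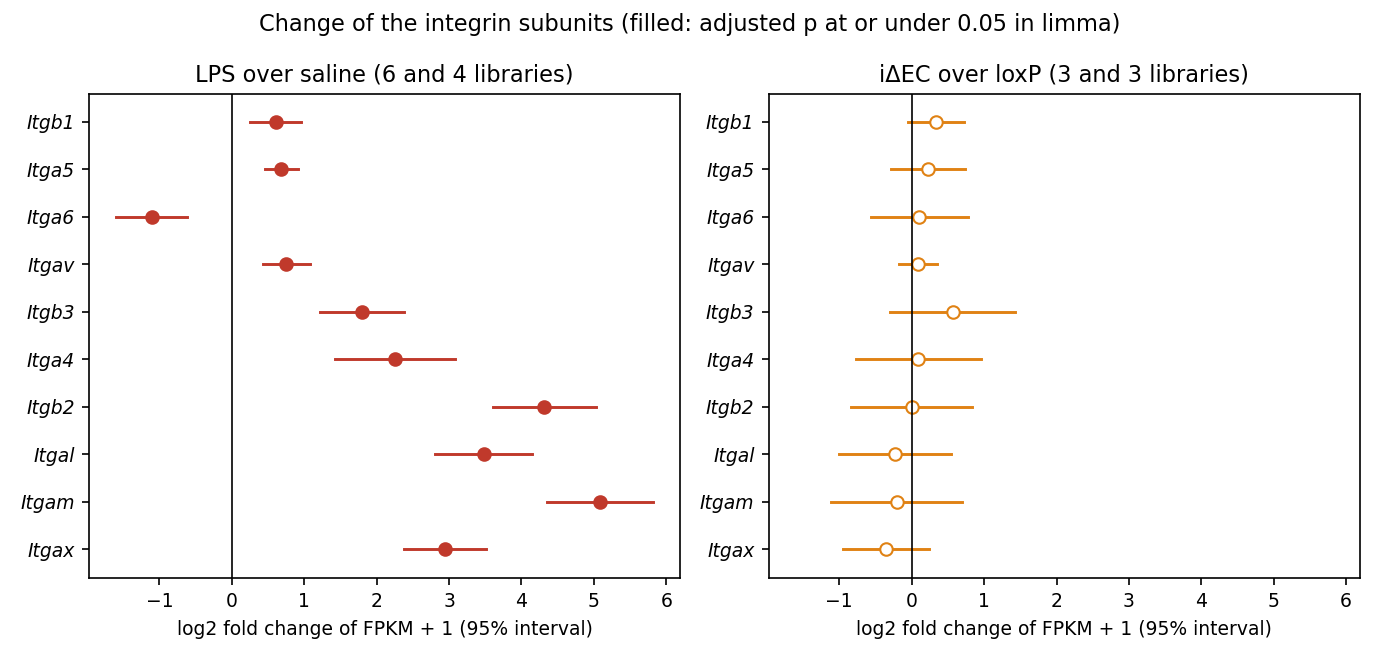
Log2 fold change on FPKM + 1 (points) with its 95% interval (lines) for the 10 integrin genes, LPS over saline on the left and iΔEC/iΔEC over loxP/loxP on the right, where filled points have an adjusted p at or under 0.05 in limma. On the left, changes run from -1.11 for Itga6 to 5.08 for Itgam and all points are filled, while on the right no point is filled and every interval includes 0.

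The order of the levels was different in the 2 groups. In the saline libraries Itgb1 (221 ± 31.7 FPKM, SD, n = 4) was followed by Itga6 (67.8 ± 16.8), Itga5 (35.1 ± 1.16) and Itgb2 (17.7 ± 11.1), then by Itgal (7.96 ± 4.50), Itgb3 (4.68 ± 2.42), Itgav (3.85 ± 0.647), Itga4 (3.80 ± 1.62), Itgax (2.64 ± 0.943) and Itgam (1.33 ± 1.39). The ranges of Itgb1, Itga6 and Itga5 did not meet, whereas from Itga5 downward each range overlapped the next. In the LPS libraries Itgb2 (344 ± 99.9 FPKM, SD, n = 6) and Itgb1 (337 ± 46.9) overlapped at the top. They were followed by Itgal (94.9 ± 31.2), Itgam (73.8 ± 25.7) and Itga5 (57.1 ± 5.47), whose ranges overlapped in turn, and by Itga6 (31.4 ± 9.40), Itgax (27.7 ± 10.0), Itga4 (23.1 ± 11.4) and Itgb3 (18.1 ± 5.63), with Itgav last (7.21 ± 1.45). Of the FPKM of the 3 beta chains, Itgb2 made up between 4.55% and 10.98% in the saline libraries and between 32.8% and 63.5% in the LPS libraries.

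Across the 10 libraries of this experiment, each with its group mean subtracted, the 5 genes most like each beta chain were different. These correlations share library composition and depth and are given as a description (n = 10 libraries, 7765 genes averaging 5 FPKM or more). The genes most like Itgb2 were Csf1r (r = 0.996), the receptor of the macrophage growth factor, Myo1f (0.992), Cd300a (0.978), Igsf6 (0.976) and Csf2ra (0.973). Its partners followed it at 0.956 for Itgam, 0.893 for Itgal and 0.820 for Itgax, and Ptprc at 0.789. Itgb1 was most like Ctnnb1 (r = 0.986), the beta-catenin of cell junctions, Clic4 (0.985), Farp1 (0.977), the basement membrane collagen gene Col4a1 (0.975) and the kindlin gene Fermt2 (0.972). It followed Pecam1 at 0.910 but Itgb2 at 0.09. Itgb3 was most like Selp (r = 0.941), which encodes the P-selectin of activated ECs and platelets, then Gm10698 (0.931), Iars2 (0.912), Nacc1 (0.909) and 4930413G21Rik (0.903). It followed Pf4 at 0.13, but Itgb1 at 0.71, Itgb2 at 0.54 and Pecam1 at 0.52.

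**Figure D4:**
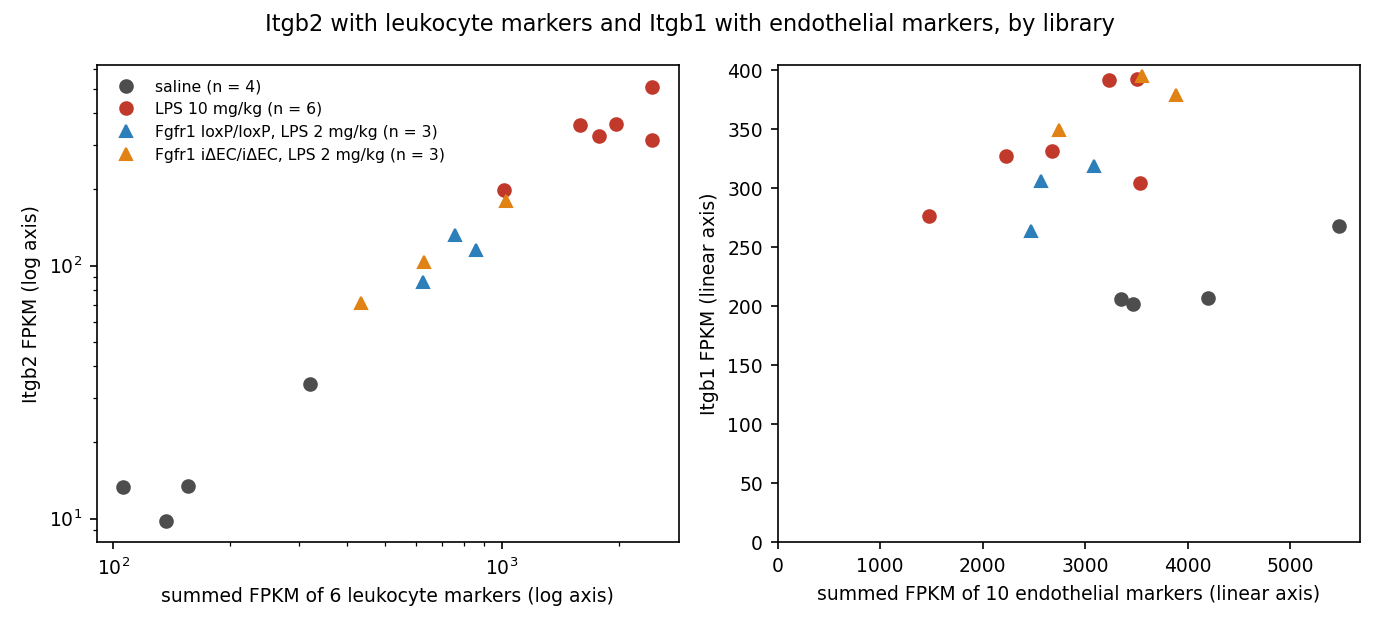
Left, Itgb2 FPKM against the summed FPKM of 6 leukocyte markers (both log axes). Right, Itgb1 FPKM against the summed FPKM of 10 endothelial markers (both linear axes). Each point is a library, circles for the first experiment and triangles for the second. Leukocyte sums run from 106 to 320.4 in saline and from 1009 to 2439 in LPS libraries, and Itgb2 is higher in all of the latter.

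Loss of endothelial Fgfr1 was examined in the second experiment. Fgfr1 was at 2.90, 2.91 and 2.59 FPKM in loxP/loxP 1 to 3 and at 0.683, 1.41 and 1.15 FPKM in iΔEC/iΔEC 1 to 3, so the libraries did not overlap and were ordered as their labels say. The log2 fold change was -0.88 ± 0.16 (SE), with an adjusted p of 0.962 over all genes in limma and an exact permutation p of 0.1, the smallest that 3 against 3 libraries allow. In the first experiment Fgfr1 was also lower in LPS than in saline libraries (log2 fold change -0.70, limma adjusted p = 0.0113). Of 14945 genes tested 0 (0%) passed the adjusted threshold in either direction with limma, while 661 (4.42%) had an unadjusted p under 0.05, and limma-voom on read numbers also called 0, with 623 under 0.05 unadjusted. Of the 10 integrin genes 0 passed, and 0 had an unadjusted p under 0.05. Their median log2 fold change was 0.09, beside 0.01 for all genes.

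Itgb1 was the integrin of the 10 for which the genotypes did not overlap, as was the case for 10.1% of all genes (6.02% higher and 4.09% lower). It was at 319, 264 and 307 FPKM in loxP/loxP 1 to 3 and at 379, 349 and 395 FPKM in iΔEC/iΔEC 1 to 3, a log2 fold change of 0.34 (95% interval -0.05 to 0.72, limma adjusted p = 0.962, exact permutation p = 0.1). Endothelial marker sums were 3086, 2468 and 2573 FPKM in loxP/loxP 1 to 3 and 3885, 2747 and 3553 FPKM in iΔEC/iΔEC 1 to 3. Scaled on these markers the change of Itgb1 was 0.10, but this scaling also moved the median of all genes to -0.18. The part of endothelial transcripts in the Itgb1 values was not tested. Itgb3 was at 30.6, 28.8 and 15.1 FPKM in loxP/loxP 1 to 3 and at 38.3, 50.7 and 23.3 FPKM in iΔEC/iΔEC 1 to 3. The groups overlapped, and the log2 fold change of 0.57 had a 95% interval from -0.29 to 1.42. This change was 0.26 without loxP/loxP 3, 0.86 without iΔEC/iΔEC 3 and 0.33 with scaling on the endothelial markers. Platelet genes summed to 109, 191 and 197 FPKM in loxP/loxP 1 to 3 and to 178, 223 and 162 FPKM in iΔEC/iΔEC 1 to 3.

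Beta 2 transcripts overlapped between the genotypes. Itgb2 was at 86.4, 115 and 132 FPKM in loxP/loxP 1 to 3 and at 70.9, 180 and 103 FPKM in iΔEC/iΔEC 1 to 3. The difference was 0.00 on the log2 scale, with a 95% interval from -0.83 to 0.84, so changes of nearly 1 in either direction lie within the error of this design. Itgam was at 19.7, 32.7 and 28.3 FPKM in loxP/loxP 1 to 3 and at 13.9, 39.9 and 20.9 FPKM in iΔEC/iΔEC 1 to 3. In both genes iΔEC/iΔEC 2 was the highest library and iΔEC/iΔEC 1 the lowest of the experiment. The leukocyte sums had the same highest and lowest library, at 627, 856 and 757 FPKM in loxP/loxP 1 to 3 and at 435, 1023 and 629 FPKM in iΔEC/iΔEC 1 to 3. Neutrophil genes summed to 1167, 2559 and 2571 FPKM in loxP/loxP 1 to 3 and to 751, 2453 and 1525 FPKM in iΔEC/iΔEC 1 to 3, and the part of both in these values was not tested. Itgal was at 30.2, 35.1 and 52.3 FPKM in loxP/loxP 1 to 3 and at 21.05, 46.8 and 34.0 FPKM in iΔEC/iΔEC 1 to 3. Itgax was at 15.4, 25.1 and 28.5 FPKM in loxP/loxP 1 to 3 and at 13.8, 19.8 and 18.8 FPKM in iΔEC/iΔEC 1 to 3. The log2 fold changes were -0.21 for Itgam (95% interval -1.11 to 0.70), -0.24 for Itgal (-1.01 to 0.54) and -0.35 for Itgax (-0.95 to 0.25). That of Itgax was -0.60 without loxP/loxP 1, -0.18 without loxP/loxP 3 and -0.58 with scaling on the endothelial markers.

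The remaining alpha chains overlapped between the genotypes as well. Itga5 was at 59.4, 66.2 and 49.97 FPKM in loxP/loxP 1 to 3 and at 55.6, 91.9 and 62.3 FPKM in iΔEC/iΔEC 1 to 3. Itga6 was at 42.5, 33.4 and 45.2 FPKM in loxP/loxP 1 to 3 and at 62.6, 29.0 and 44.3 FPKM in iΔEC/iΔEC 1 to 3. The iΔEC/iΔEC libraries thus held both the highest and the lowest value of Itga6. Itga4 was at 7.22, 8.56 and 8.41 FPKM in loxP/loxP 1 to 3 and at 6.03, 16.8 and 6.19 FPKM in iΔEC/iΔEC 1 to 3, and without iΔEC/iΔEC 2 its log2 fold change went from 0.09 to -0.35. Itgav was at 4.83, 4.72 and 4.79 FPKM in loxP/loxP 1 to 3 and at 4.83, 5.95 and 4.72 FPKM in iΔEC/iΔEC 1 to 3, the tightest of the 10 genes in the control group. Intervals were -0.28 to 0.74 for Itga5, -0.56 to 0.77 for Itga6, -0.77 to 0.95 for Itga4 and -0.18 to 0.35 for Itgav. Each of these intervals included 0, and no direction is given for the 4 genes.

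Same-numbered libraries of the second experiment deviated together over all genes, and differences were therefore also read within the 3 pairs of the same number. Of the 10 integrin genes 2 were higher in iΔEC/iΔEC in all 3 pairs, Itgb1 and Itgb3, and 1 was lower in all 3, Itgax, beside 17.8% and 12.9% of all genes. Both counts are near the shares of all genes, and the values that follow are a description. The differences on the log2 scale were 0.25, 0.40 and 0.36 for Itgb1 in pairs 1 to 3, 0.31, 0.80 and 0.59 for Itgb3, and -0.15, -0.32 and -0.58 for Itgax. With the replicate number as a block these genes had adjusted p-values of 0.642, 0.571 and 0.622 in limma. Of the 7 ratios of alpha to beta chain 0 passed the test between the genotypes, with unpaired exact permutation p-values between 0.2 and 0.7 and adjusted values of 0.525 to 0.7. Within pairs, the log2 ratio of Itgal to Itgb2 was lower in iΔEC/iΔEC by nearly the same amount each time (-0.22, -0.24 and -0.25 in pairs 1 to 3). The ratios of Itgam to Itgb2 (-0.20, -0.37 and -0.06) and of Itgav to Itgb1 (-0.25, -0.12 and -0.38) were also lower in each pair, while the other 4 ratios did not have the same sign in all pairs. For these 3 ratios the paired exact permutation p was 0.25, the smallest that 3 pairs allow (0.583 adjusted over the 7), so a paired test of this size cannot pass the threshold.

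The second experiment was normalised on its own, and the dose and the mice differed, so its levels can only be set beside those of the first. Itgb2 had a mean of 111 ± 23.0 FPKM (SD, n = 3) in loxP/loxP and 118 ± 56.2 (SD, n = 3) in iΔEC/iΔEC libraries, between the saline and LPS means above. The mean of Itgb1 was 297 ± 28.7 FPKM and 374 ± 23.3 FPKM (SD, n = 3 each), that of Itga5 58.5 ± 8.13 and 69.9 ± 19.3 FPKM, and that of Itga6 40.4 ± 6.18 and 45.3 ± 16.8 FPKM. In each of the 6 libraries Itgb1 was the most abundant integrin of the 10 and Itgb2 the next. Itgam made up between 25.9% and 37.5% of the FPKM of the beta 2 partners in these libraries.

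The other integrin subunits were read in the same way. Of 16 subunit genes outside the set 11 were tested in LPS over saline. Of these 3 were higher, 5 lower and 3 not called, beside 29.5% of all genes higher and 23.7% lower. The share that was higher was thus near that of all genes. The median log2 fold change was -0.21, beside 0.01 for all genes. Itga8, whose receptor binds nephronectin, averaged 9.23 ± 2.74 FPKM in saline (SD, n = 4) and 1.60 ± 0.808 FPKM in LPS libraries (SD, n = 6), and fell by 1.98 on the log2 scale (limma adjusted p = 5.91e-05). Itga1, which encodes a collagen receptor chain, fell from 46.3 ± 6.64 to 14.0 ± 4.33 FPKM (log2 fold change -1.69, limma adjusted p = 6.77e-05). Itgb4, the partner of alpha 6 in epithelium, fell from 3.01 ± 1.93 to 1.01 ± 0.387 FPKM (log2 fold change -0.90, limma adjusted p = 0.0142). Itga2b, the platelet partner of beta 3, rose from 2.97 ± 1.11 to 7.20 ± 2.86 FPKM (log2 fold change 1.03, limma adjusted p = 0.00516). In the same libraries the mean sum of the epithelial markers went from 1574 to 447 FPKM. Sftpc made up most of this sum, going from 1316 to 280 FPKM. Of the 7 epithelial genes 2 were lower, near the 23.7% of all genes. Of the tested markers 5 of 10 endothelial and 3 of 5 fibroblast genes were lower, and 2 of 5 platelet genes were higher. The part of these transcripts in the subunit values was not tested. Itgad, which lies 3718 bp beyond Itgax and encodes a further beta 2 partner, is named for that position and had means of 0.0501 and 0.0305 FPKM and was not tested. In iΔEC/iΔEC over loxP/loxP libraries 11 were tested and 0 passed the adjusted threshold.

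**Figure D5:**
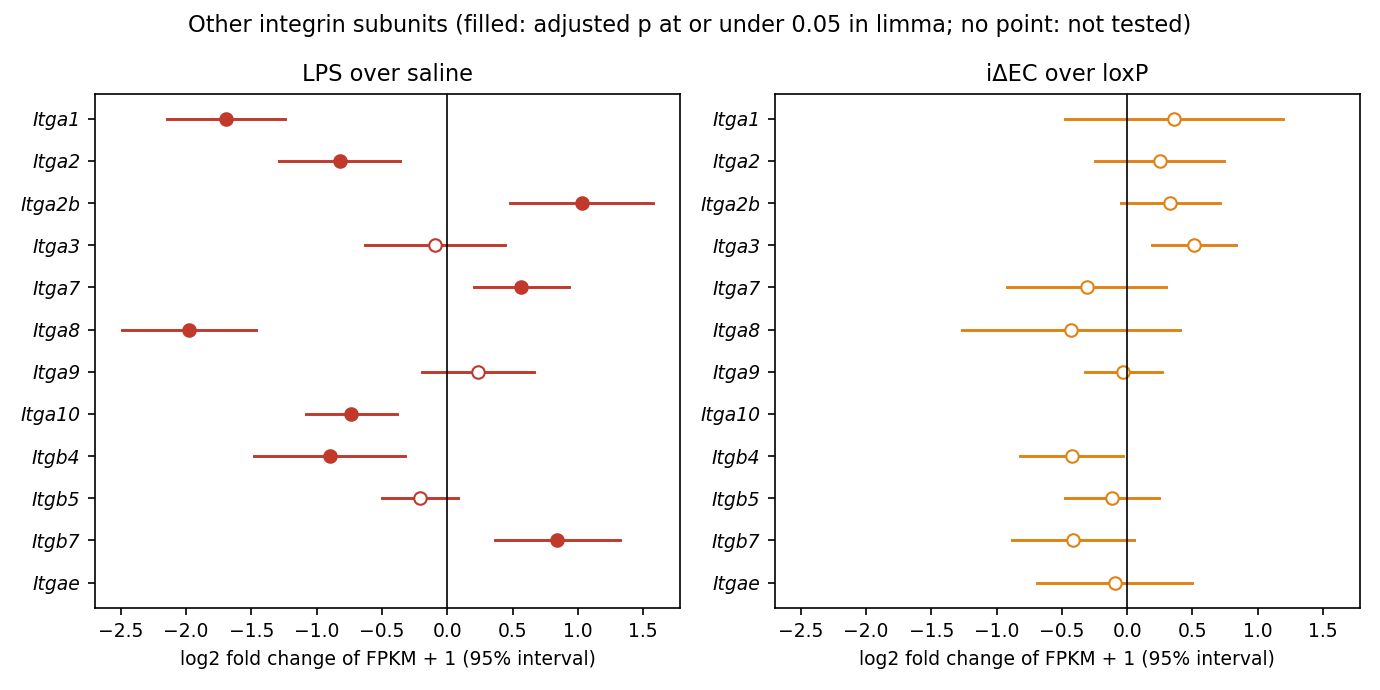
Log2 fold change on FPKM + 1 (points) with its 95% interval (lines) for the other integrin subunits tested in at least 1 experiment, LPS over saline on the left and iΔEC/iΔEC over loxP/loxP on the right, where filled points have an adjusted p at or under 0.05 in limma. Itga8 and Itga1 fell furthest on the left, by 1.98 and 1.69, and no point is filled on the right.

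Transcripts for proteins that switch integrins on from inside the cell, or that join them to actin, were read next. Of 30 such genes 29 were tested. In the LPS group 13 were higher, 6 lower and 10 not called, beside 29.5% of all genes higher and 23.7% lower. The share that was lower was thus near that of all genes. The median log2 fold change was 0.24, beside 0.01. Apbb1ip, which encodes the Rap1 effector RIAM, averaged 1.62 ± 0.598 FPKM in saline (SD, n = 4) and 19.1 ± 6.02 FPKM in LPS libraries (SD, n = 6), and rose by 2.92 on the log2 scale (limma adjusted p = 2.91e-06). Fermt3, the kindlin that activates beta 2 and beta 3 integrins in blood cells, rose from 13.3 ± 4.64 to 90.4 ± 23.8 FPKM (log2 fold change 2.69, limma adjusted p = 1.75e-05). Fermt2, the kindlin of most other cells, was at 72.9 and 58.8 FPKM on average and did not pass the test (log2 fold change -0.33, limma adjusted p = 0.235). Rassf5, whose product RAPL binds LFA-1, rose by 2.53 on the log2 scale (limma adjusted p = 0.000192), and Cytip, whose product binds cytohesin-1, rose by 2.22 (limma adjusted p = 0.00159). The leukocyte markers rose in the same libraries, from a mean sum of 179.7 to 1868 FPKM with 6 of 6 genes higher, and their part in these values was not tested. In iΔEC/iΔEC over loxP/loxP libraries 0 of 29 passed.

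Ligands of the integrins formed 2 groups. Of 9 ligands on the cell surface 8 were tested, 2 were higher and 1 was lower, beside 29.5% and 23.7% of all genes, with a median log2 fold change of -0.21. Icam1, the ligand of LFA-1 and Mac-1, averaged 58.3 ± 17.6 FPKM in saline (SD, n = 4) and 295 ± 51.5 FPKM in LPS libraries (SD, n = 6), and rose by 2.35 on the log2 scale (limma adjusted p = 8.38e-06). F11r, which encodes the junction protein JAM-A, rose by 0.72 on the log2 scale (limma adjusted p = 0.00683), and Jam3, which encodes the Mac-1 ligand JAM-C, fell by 0.64 (limma adjusted p = 0.00434). In the second experiment Icam1 was at 199.9 ± 68.5 FPKM in loxP/loxP and 360.2 ± 24.0 FPKM in iΔEC/iΔEC libraries (SD, n = 3 each). The groups did not overlap, as was the case for 10.1% of all genes and 1 of the 8 surface ligands tested, but the adjusted p was 0.962 in limma. Endothelial markers were above 0 for 9 of 10 genes there, with mean sums of 2709 and 3395 FPKM. Their part in the Icam1 values was not tested. Of 20 matrix and soluble ligands 17 were tested, 5 were higher and 6 lower, again beside 29.5% and 23.7% of all genes, with a median log2 fold change of -0.37. Npnt, which encodes nephronectin, the ligand of the alpha 8 receptor, fell from 45.6 ± 11.6 to 7.62 ± 2.80 FPKM (log2 fold change -2.46, limma adjusted p = 2.62e-05). Higher values were found for Thbs1 (log2 fold change 1.90, limma adjusted p = 0.0152), Tgfb1 (1.48, limma adjusted p = 1.02e-05) and Fn1 (1.36, limma adjusted p = 0.0052), the fibronectin gene. In the same libraries the mean sum of the epithelial markers went from 1574 to 447 FPKM, with 2 of 7 genes lower, and that of the leukocyte markers from 179.7 to 1868 FPKM, and the part of either in the ligand values was not tested. In iΔEC/iΔEC over loxP/loxP libraries 0 of the 8 surface and 0 of the 17 matrix and soluble ligands tested passed.

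Markers of the remaining cell types were also read, and 0 of their tested genes were higher in the LPS group. The counts that follow stand beside the 23.7% of all genes that were lower, and 2 of 7 epithelial and 1 of 6 mural genes are close to that share. Lymphocyte genes, led by Cd79a, summed to between 24.0 and 134 FPKM in saline and between 12.1 and 48.4 FPKM in LPS libraries, and 3 of 5 tested fell. Dendritic cell genes, led by Clec9a, summed to between 24.7 and 52.3 and between 15.2 and 33.4 FPKM, with 1 of 2 tested lower and Cd209a at 0 in LPS 5. Among epithelial genes, led by the surfactant gene Sftpc, 2 of 7 were lower, with sums of 949.9 to 2393 FPKM in saline and 171 to 624.6 FPKM in LPS libraries. Fibroblast genes, led by Col3a1 except in LPS 4 (Col1a1), fell in 3 of 5 cases, with sums of 31.3 to 59.1 and 17.5 to 41.5 FPKM, and among mural genes 1 of 6 was lower, with sums of 23.3 to 113 and 30.6 to 57.1 FPKM. Acta2 was the most abundant mural gene except in saline 2 and saline 4, where it was Pdgfrb. Marco, a macrophage gene, was at 0 in saline 1 and Lum, a fibroblast gene, was at 0 in saline 3. The part of these transcripts in the integrin values was not tested.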

How the data were processed

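The authors aligned the reads to GRCm38 with HISAT2 2.0.5, counted them on genes with featureCounts 1.5.0-p3 and deposited FPKM with gene lengths, 1 table per experiment. The annotation release, the trimming and the strand setting were not given in the sources used here. FPKM times length gave whole read numbers for 100% of values (tolerance 0.01 reads), and the deposited FPKM already carried median-of-ratios scaling within each table (largest residual 0.18%). In the second of these, 11 symbols had turned into dates and were taken from the first.

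Groups came from the labels. log2(FPKM + 1) of genes averaging 0.5 FPKM or more was fitted with limma 3.58.1 (R 4.3.3, lmFit, eBayes with trend) within each table, and p-values were adjusted by Benjamini-Hochberg over all genes tested. The threshold was an adjusted p of 0.05. For single values and ratios, exact permutation tests (scipy 1.17.1, two-sided) were used, the ratios adjusted over 7. An added count fit, limma-voom on the recovered reads, called 4133 genes higher and 3895 lower in LPS over saline. The fits were tested on simulated data.

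Between replicates the mean chi-square over genes was at least 7.28, so no library copied another. In the second experiment, same-numbered libraries deviated together (correlations of 0.18 to 0.25 over genes), so the numbers were taken as pairs, by the data and not by the labels. With the replicate block 0 genes were called there, as without it.

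The genes named were the 10 integrins, Fgfr1, Ptprc and Pecam1, the up to 4 largest called changes of each of 4 lists (other subunits, activators and adaptors, surface ligands, matrix and soluble ligands), the top gene of each of 10 marker lists, and the 5 genes most like each beta chain. Genes at 0 and Itgad were added after their values were seen. The integrins and lists were chosen with earlier results of these data known. Alternatives covered the pseudocount (0.1), the filter, quantile, total-read and endothelial-marker scaling, voom, the replicate block and leaving out libraries. Leaving out saline 1 and saline 3 together, and reading ratios within pairs, were added after seeing the data. Intervals on reads cover counting error only, since there were no molecular identifiers.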

Additional observations from a re-analysis of the deposited data

Results flagged for a closer look

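Dixon's ratio was computed for 34 sets of 4 or 6 libraries (a gene or a ratio within saline or LPS), and in 5 of them the gap between an end library and its neighbour exceeded the 95% critical value. Chance alone gives about 1.7 of these, at 1 in 20 groups. All 5 belonged to saline 1. Its Itgb1 was at 269 FPKM against 202 to 207 in the other saline libraries, its Itgam at 3.42 FPKM against 0.576 to 0.724, and its Itgb2 at 34.1 FPKM against 9.81 to 13.5. The log2 ratio of Itgax to Itgb2 was -2.84 there, below the other saline libraries, which reached from -2.06 to -2.02, and the log2 ratio of Itga5 to Itgb1 was also -2.84, where the others reached from -2.57 to -2.52. Saline 1 also had the fewest reads on genes (13478726), the highest sum of neutrophil genes among the saline libraries (1401 FPKM) and the highest sum of endothelial genes of the experiment (5478 FPKM). What sets this library apart was not tested.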

How the results depend on the processing

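In LPS over saline, the direction of each of the 10 integrin genes was the same under all 18 alternatives run. The count of genes called higher went from 4399 to 6932 with endothelial-marker scaling and to 1768 with a limit of 1 on the absolute log2 fold change, and the count called lower from 3529 to 860 and to 1011. The integrin called lower, Itga6, was lost with endothelial-marker scaling (0 called lower, log2 fold change -0.42, adjusted p = 0.128 in limma). Itga5 (0.23, adjusted p = 0.0937) and Itgb1 (0.03, adjusted p = 0.905) lost their limma call with quantile normalization. Same-numbered saline and LPS libraries did not deviate together (correlations of -0.21 to 0.10), and a replicate block over these numbers, which does not use LPS 5 and LPS 6 for pairs, gave 3438 genes higher and 2561 lower, with Itgb1 at 0.55 (adjusted p = 0.134 in limma) and the other 9 integrins still called. Leaving out each library in turn gave 9 integrins higher and 1 lower each time, and 3815 to 4606 genes higher and 2890 to 3766 lower. The ratio of Itga5 to Itgb1 differed by -0.000115 to 0.147 when a library was left out, with the lowest value, a change of sign, without saline 1. In iΔEC/iΔEC over loxP/loxP 0 genes were called under every alternative, the replicate block included. Scaling on endothelial markers lowered the whole table and gave -0.11 for Itga4, -0.00922 for Itga5, -0.13 for Itga6, -0.11 for Itgav and -0.24 for Itgb2, where the median of all genes was -0.18. Itgb2 was also at -0.0558 with quantile normalization, -0.0658 with total-read scaling and -0.0203 with voom. With a library left out the ranges were -0.35 to 0.32 for Itga4, -0.16 to 0.39 for Itga6, -0.00291 to 0.14 for Itgav, -0.50 to 0.0619 for Itgal, -0.60 to 0.13 for Itgam and -0.35 to 0.31 for Itgb2. Those that kept their sign were 0.0151 to 0.37 for Itga5, 0.25 to 0.39 for Itgb1, 0.26 to 0.86 for Itgb3 and -0.60 to -0.18 for Itgax. The causes of these shifts were not tested. With 3 libraries per genotype, the data do not exclude differences within the intervals given. No saline group was included at this dose.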

Other observations

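Other genes of the lists, named here after their values were seen, give more of the machinery in LPS over saline. Among cytoskeletal linkers, Tln1, the talin that opens the beta chains, rose from 52.4 to 114 FPKM (log2 fold change 1.08, limma adjusted p = 0.000328), while its relative Tln2 fell from 1.51 to 0.237 FPKM (-1.03, limma adjusted p = 3.84e-05). Rap1b, the small GTPase upstream of talin, rose from 118 to 319 FPKM (1.45, limma adjusted p = 7.72e-05), and Flna, the filamin that competes with talin for beta chains, rose from 51.1 to 207 FPKM (1.96, limma adjusted p = 6.12e-05). Ptk2, which encodes focal adhesion kinase, fell from 16.5 to 9.08 FPKM (-0.80, limma adjusted p = 0.00165), whereas Ptk2b, its relative in blood cells, rose from 7.02 to 28.6 FPKM (1.91, limma adjusted p = 0.000238). The matrix and soluble ligands, of which 5 of 17 tested were higher and 6 lower (29.5% and 23.7% of all genes), include 5 laminin chains that form ligands of alpha 6 receptors. Of these, Lama4 fell by 0.88 on the log2 scale (limma adjusted p = 0.000502), Lamb1 by 0.84 (limma adjusted p = 0.0108) and Lamb2 by 0.85 (limma adjusted p = 0.0101), while Lama5 was at 39.6 and 27.5 FPKM in groups that overlapped (-0.52, limma adjusted p = 0.0795) and Lamc1 at 26.9 and 28.1 FPKM. Endothelial markers fell in the same libraries (median log2 fold change -0.63 for the list) and leukocyte markers rose (3.12, with 6 of 6 genes higher), and the part of either in these values was not tested.

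In iΔEC/iΔEC over loxP/loxP libraries Itga3, the alpha chain of a further laminin receptor, was at 61.8 and 88.4 FPKM on average, with groups that did not overlap and an unadjusted p of 0.00773 in limma (adjusted p = 0.962). Col4a2 was at 260.4 and 392.3 FPKM and Vcl, the vinculin gene, at 13.8 and 21.3 FPKM, also without overlap and with an adjusted p of 0.962 in limma. Groups did not overlap for 10.1% of all genes there. Of the genes tested, this held for 3 of 11 other subunits, 7 of 29 activators and adaptors and 5 of 17 matrix and soluble ligands. These included Itgb4, which was lower, at 6.80 FPKM in loxP/loxP and 4.87 FPKM in iΔEC/iΔEC libraries on average. Of the 11 other subunits tested, Itga3 included, 4 had a log2 fold change above 0. Endothelial markers were above 0 for 9 of 10 genes (median log2 fold change 0.23, mean sums of 2709 and 3395 FPKM), and their part in these values was not tested. All of these are reported as values, since 0 genes passed the adjusted threshold there.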
